A study of Mus musculus with 14 samples.

Results

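The 32 genes described here encode the enzymes of cholesterol and fatty acid synthesis and the proteins that govern or accompany them. They were chosen by symbol from a table of 55433 genes, with earlier results of these data known. All 32 were found in the RNA table and all 32 passed the filter on low values. They fall into 18 sterol synthesis steps, 6 fatty acid synthesis steps, 5 regulators of the SREBP pathway and 3 sterol transport genes. They were measured in cells derived from a mouse tumor (strain C57BL/6, passages 6 to 8) and grown in serum-containing medium. One group carried a guide RNA against Nsd3 (sgNSD3), and the other carried a control guide (sgControl). Nsd3 encodes a histone H3 lysine 36 methyltransferase. Total RNA was sequenced from 3 samples per condition. Chromatin was profiled by CUT&RUN in 4 samples for H3K36me2, 2 for H3K27me3 and 2 for an IgG control, divided equally between the guides by their titles, although 1 IgG sample titled sgNSD3 carries an sgControl source label. The labels name neither the tumor type nor the delivery of the guide nor whether the cells were 1 clone. They also do not state whether the RNA samples are separate cultures, so p-values here cover the sample-to-sample spread alone, and that spread may be technical.

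Cells build cholesterol from acetyl-CoA through mevalonate, isoprenoid units and squalene, which is closed to lanosterol and then trimmed and desaturated to cholesterol. Fatty acids start from the same acetyl-CoA, and are then elongated and desaturated. The transcription factors SREBP-2 and SREBP-1 switch on the genes of both routes. When membrane sterol is low, the escort protein SCAP carries them from the endoplasmic reticulum to the Golgi for cleavage, and INSIG proteins hold them back when sterol is plentiful. SREBP-2 acts mainly on sterol genes and SREBP-1c mainly on fatty acid genes. Cultured cells supplied with serum take up part of their cholesterol from lipoproteins.

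Recovered counts summed to between 20294828 and 21863833 per RNA library. Values are given as normalized counts, meaning counts recovered from the deposited log2 scale and divided by the library size factors. Nsd3, on chromosome 8 from 25601601 to 25719667 in mm10, reached 21989, 22012 and 21837 normalized counts in the libraries labelled sgNSD3, against 14568, 14402 and 14675 in sgControl. The targeted gene was thus 1.51-fold higher in the libraries labelled with its guide (limma adjusted p = 5.86e-14), and the RNA level does not show whether the protein was lost. Every direction below rests on the labels of the libraries. Replicate 1 of sgControl stood apart from the other sgControl libraries: their counts differed by a chi-square per degree of freedom of 6.4 and 9.58, against 7.2 to 8.07 between the conditions, 1.32 to 1.44 among libraries labelled sgNSD3 and 2.84 between sgControl replicates 2 and 3. It also had 8.7% of counts on the noncoding gene Gm26917 and 0.795% on mitochondrial genes, against 6.81% and 6.65%, and 1.02% and 1.1%, in sgControl replicates 2 and 3. Libraries labelled sgNSD3 had 7.81%, 7.66% and 7.74% on Gm26917 and 0.817%, 0.83% and 0.802% on mitochondrial genes. By mitochondrial share, sgControl replicate 1 thus lay near the libraries labelled sgNSD3, and sgControl replicates 2 and 3 stood apart. Adipocyte and hepatocyte markers were near absent, summing to at most 14.38 and 6.843 normalized counts in a library labelled sgNSD3, and to at most 17.25 and 7.104 in an sgControl library. Mesenchymal markers summed to 832245 to 837506 in libraries labelled sgNSD3 and to 761355 to 864257 in sgControl. Of the 6 tested, 1 was called higher (Col1a1) and 1 lower (Pdgfra), beside 5.44% and 6.44% of all genes tested. Among 7 epithelial markers, Epcam was at 0 in all libraries. Cdh1 averaged 3.24 normalized counts in libraries labelled sgNSD3 and 3.374 in sgControl. Of the 4 tested, 3 were lower, the keratins Krt14, Krt18 and Krt19, beside 6.44% of all genes tested. The 7 markers summed to 3067 to 3100 normalized counts in libraries labelled sgNSD3 and 4263 to 4824 in sgControl, mostly from Krt19. The means of Krt19 were 2676 ± 27.8 in libraries labelled sgNSD3 and 3911 ± 277 in sgControl (SD, n = 3 each). This keratin shift moved with the differences below, and its part in them was not tested. In bulk RNA, fewer cells of a type and less RNA per cell cannot be told apart.

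Sterol synthesis genes were slightly lower in the libraries labelled sgNSD3, while the medians of the 6 fatty acid steps and the 5 SREBP regulators stayed near that of all genes. Of the 18 sterol steps, 5 fell and 1 rose (limma on the deposited log2 values, Benjamini-Hochberg adjusted over all 18263 genes tested, threshold 0.05). Over all genes tested, 6.44% were called lower and 5.44% higher, and among the 12779 genes within the range of levels of the sterol genes 6.95% were called lower. Without sgControl replicate 1, 5 sterol steps were called lower and 0 higher, with a median log2 fold of -0.16. Without sgNSD3 replicate 3 or sgControl replicate 3, 3 sterol steps were called, all lower. Of the 6 fatty acid steps, 0 fell and 1 rose, and without any 1 library labelled sgNSD3 none was called. The contrast covers these 6 steps only: of 25 other tested genes of fatty acid supply, modification and lipid assembly, 5 fell and 1 rose. None of the 5 regulators or the 3 transport genes was called, while without sgControl replicate 1 the regulator Srebf1 was. At an unadjusted limma p under 0.05, Scap and Insig1 were lower among the regulators, and no transport gene or further fatty acid step differed. Among the uncalled sterol steps Acat2, Mvk, Mvd, Idi1, Fdft1, Lss and Hsd17b7 were also lower at that threshold. The share of all genes passing it was not computed, so the groups are not compared on it. The median log2 fold was -0.14 over the sterol steps, 0.01 over the fatty acid steps, -0.02 over the regulators, 0.06 over the transport genes and 0.00 over all genes tested. The log2 fold of 16 of the 18 sterol steps was below 0, against 9095 of 18263 genes overall. These counts and medians describe the lists and are no test of them, since genes of a shared pathway do not vary independently.

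**Figure D1:**
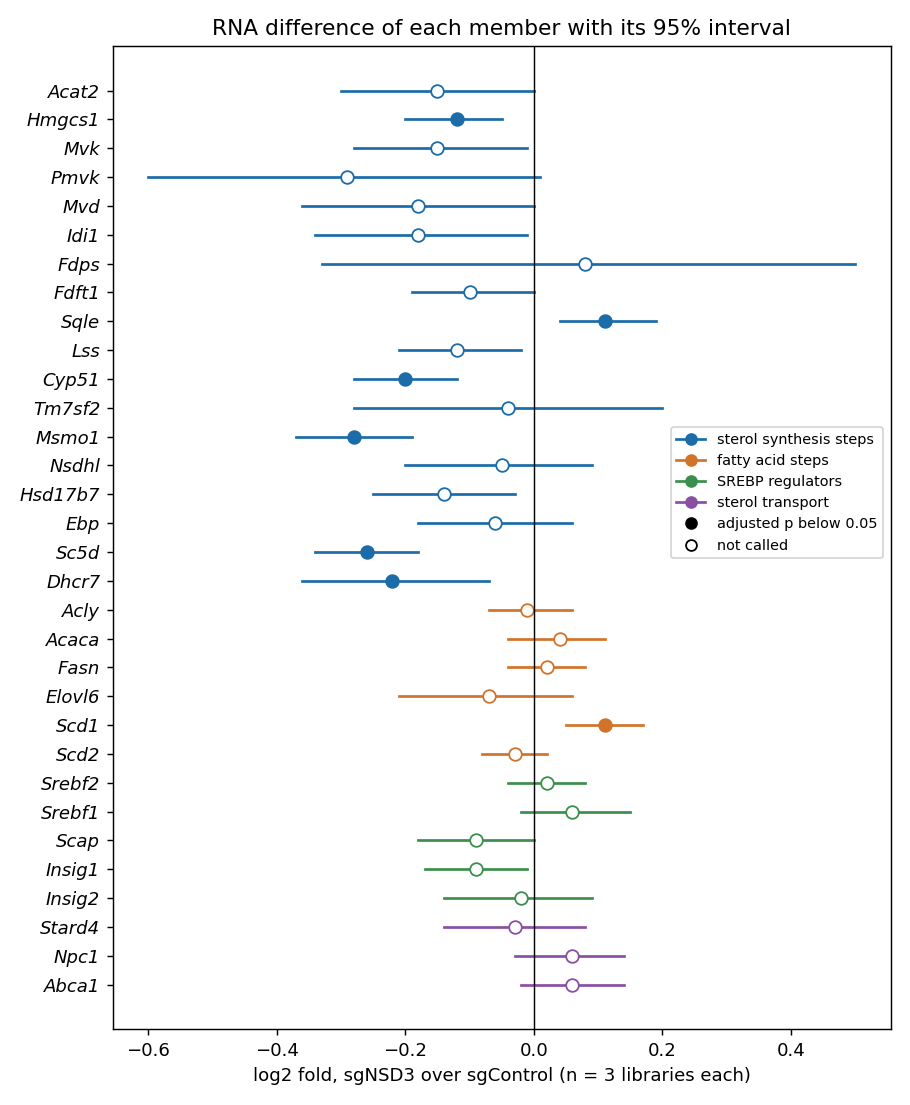
Log2 fold of each of the 32 members, libraries labelled sgNSD3 over sgControl (x axis), with its 95% interval as a line, in pathway order from top to bottom. Filled points passed the adjusted p threshold. Most blue points (sterol steps) lie left of 0, with Sqle to the right, while orange and green points (fatty acid steps, regulators) lie near 0 apart from Scd1.

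The difference between the groups appeared in each library. Relative to the sgControl mean of each gene, the median over the 18 sterol steps was -0.13, -0.15 and -0.13 on the log2 scale in libraries labelled sgNSD3, replicates 1, 2 and 3. It was -0.03, -0.01 and 0.01 in the sgControl replicates. For the 6 fatty acid steps the medians were -0.01, 0.00 and 0.02 in libraries labelled sgNSD3, and -0.02, 0.01 and 0.00 in sgControl. All 3 values of a library labelled sgNSD3 thus lay below all sgControl values for the sterol steps, while the conditions overlapped for the fatty acid steps.

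**Figure D2:**
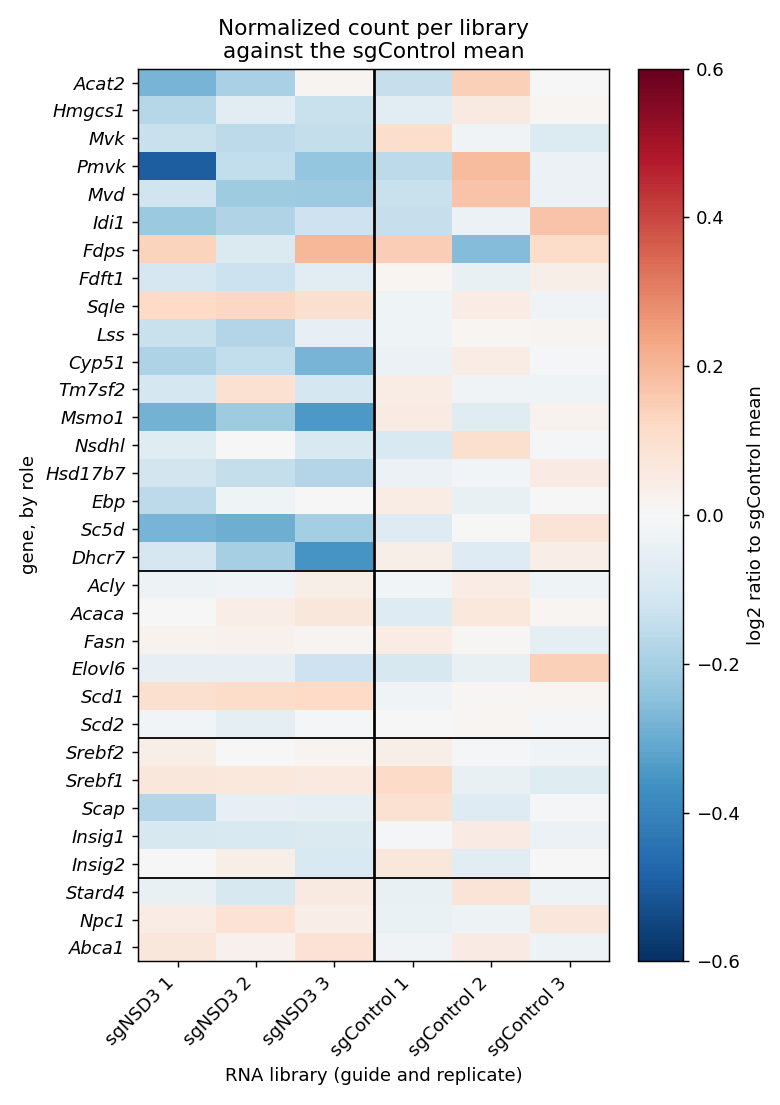
Log2 ratio of each member's normalized count to its sgControl mean (colour), with genes in rows by role and the 6 RNA libraries in columns, libraries labelled sgNSD3 on the left. Blue fills most of the upper left block of sterol steps, with Sqle red there, and the blocks beneath are pale.

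The early, mevalonate part of the route held 7 members, of which only Hmgcs1 was called. Hmgcs1 (chromosome 13, 119690351 to 119708260) encodes the cytosolic synthase that makes HMG-CoA. It had 3477, 3742 and 3566 normalized counts in libraries labelled sgNSD3, against 3741, 4065 and 3947 in sgControl. The ranges touched, since the highest library labelled sgNSD3 exceeded the lowest sgControl library by about a single count. The means were 3595 ± 135 in libraries labelled sgNSD3 and 3918 ± 164 in sgControl (SD, n = 3 each), a 1.09-fold lower level with a log2 fold of -0.12 ± 0.036 (SE; limma adjusted p = 0.0209). The call was lost without sgNSD3 replicate 1 or 3, without sgControl replicate 2 or 3, and under quantile normalization, with adjusted p up to 0.163.

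The other mevalonate genes shared that sign without passing the test, apart from Fdps. Mvk, the kinase that phosphorylates mevalonate, had 395.8, 389.3 and 393 normalized counts in libraries labelled sgNSD3, against 468, 427.7 and 410 in sgControl. Its ranges did not overlap, yet the spread among sgControl libraries was wide (log2 fold -0.15 ± 0.066, adjusted p = 0.171). The second kinase Pmvk, the decarboxylase Mvd, the isomerase Idi1 and the thiolase Acat2, which condenses acetyl-CoA, had log2 folds of -0.29, -0.18, -0.18 and -0.15, and their ranges overlapped between conditions. Their adjusted p lay between 0.191 and 0.223. Without sgControl replicate 1, Acat2 was called lower (log2 fold -0.22, adjusted p = 0.0385). Fdps, which makes farnesyl diphosphate, had means of 37.96 ± 3.92 normalized counts in libraries labelled sgNSD3 and 35.97 ± 5.49 in sgControl (SD, n = 3 each). At that depth the 95% interval of its fold ran from 0.794 to 1.41, so neither a fall like that of Hmgcs1 nor a rise could be detected. Processed copies of Fdps exist in mammalian genomes. Its value is uncertain, since the sources do not state how reads shared with near-identical copies were counted.

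From squalene onward 4 of 11 genes fell and 1 rose. The 3 most firmly called, Msmo1, Sc5d and Cyp51, encode the oxidases that act on the sterol ring after lanosterol. Msmo1 (chromosome 8, 64718123 to 64733578) removes the methyl groups at carbon C4. It had 1216, 1276 and 1165 normalized counts in libraries labelled sgNSD3, against 1532, 1409 and 1502 in sgControl. All 3 libraries labelled sgNSD3 lay well below the lowest sgControl library. The means were 1219 ± 55.5 in libraries labelled sgNSD3 and 1481 ± 64.5 in sgControl (SD, n = 3 each), 1.21-fold lower, with a log2 fold of -0.28 ± 0.045 (SE; limma adjusted p = 8.03e-05).

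Sc5d (chromosome 9, 42251592 to 42264300) encodes a desaturase that sets a ring double bond late in the route. It had 2123, 2104 and 2240 normalized counts in libraries labelled sgNSD3, against 2448, 2572 and 2725 in sgControl. The conditions were again apart in every library. Its means of 2155 ± 73.6 in libraries labelled sgNSD3 and 2582 ± 139 in sgControl (SD, n = 3 each) gave a 1.2-fold lower level (log2 fold -0.26 ± 0.04, SE; limma adjusted p = 4.54e-05). Cyp51 (chromosome 5, 4080674 to 4104697), the cytochrome that demethylates lanosterol at C14, had 2297, 2362 and 2157 normalized counts in libraries labelled sgNSD3, against 2552, 2695 and 2593 in sgControl. It was 1.15-fold lower (log2 fold -0.2 ± 0.038, SE; limma adjusted p = 0.000493), with no overlap. These 3 calls held under all 15 alternatives of test, filter, scaling, block and left-out library, with adjusted p of at most 0.00252 for Msmo1, 0.00158 for Sc5d and 0.014 for Cyp51.

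Dhcr7 (chromosome 7, 143823167 to 143848410), a reductase of the last steps, had 420.6, 392.2 and 351.9 normalized counts in libraries labelled sgNSD3, against 461.7, 426.8 and 463.8 in sgControl. It was 1.16-fold lower (log2 fold -0.22 ± 0.07, SE; limma adjusted p = 0.0455), near the threshold, and the margin between the conditions was narrow. The call was lost in 7 of 15 alternatives, among them the removal of sgNSD3 replicate 2 or 3 and of sgControl replicate 1 or 3, with adjusted p up to 0.276.

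Squalene epoxidase went the other way. Sqle (chromosome 15, 59315092 to 59331193) encodes this oxygen-dependent enzyme. It had 2176, 2185 and 2145 normalized counts in libraries labelled sgNSD3, against 1972, 2070 and 1975 in sgControl. The lowest library labelled sgNSD3 lay above the highest sgControl library. The means of 2169 ± 21.3 in libraries labelled sgNSD3 and 2006 ± 55.6 in sgControl (SD, n = 3 each) differed 1.08-fold (log2 fold 0.11 ± 0.036, SE; limma adjusted p = 0.0375). The enzymes before and after it in the route, Fdft1 (squalene synthase) and Lss (lanosterol synthase), had log2 folds of -0.10 ± 0.047 and -0.12 ± 0.046 (SE) without being called (limma adjusted p = 0.2 and 0.0956). The count ratio of Sqle to Lss was 2.22, 2.29 and 2.06 in libraries labelled sgNSD3 and 1.86, 1.91 and 1.82 in sgControl. The ratio was therefore higher in every library labelled sgNSD3. The Sqle call was lost in 8 of 15 alternatives, including the removal of any 1 library labelled sgNSD3 or of sgControl replicate 1 or 3 (adjusted p up to 0.142).

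The remaining sterol genes were not called. Hsd17b7, a ketoreductase of the C4 demethylation complex, had a log2 fold of -0.14 ± 0.054 with ranges apart (limma adjusted p = 0.0885). Nsdhl, the dehydrogenase of the same complex, had -0.05 ± 0.07 (limma adjusted p = 0.699), with an interval of fold from 0.872 to 1.06. Within that complex only the oxidase Msmo1 was called. The intervals of fold of Hsd17b7, 0.838 to 0.977, and of Nsdhl overlapped that of Msmo1, 0.772 to 0.878. Neither gene was thus shown to differ from Msmo1. Ebp, the sterol isomerase, and Tm7sf2, a C14 reductase, had log2 folds of -0.06 ± 0.059 and -0.04 ± 0.12 (SE; limma adjusted p = 0.584 and 0.887). For Tm7sf2, at 109.6 ± 8.87 normalized counts in libraries labelled sgNSD3 and 112.5 ± 2.97 in sgControl (SD, n = 3 each), a change of the size seen in Cyp51 lies within the interval of fold, 0.822 to 1.15.

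**Figure D3:**
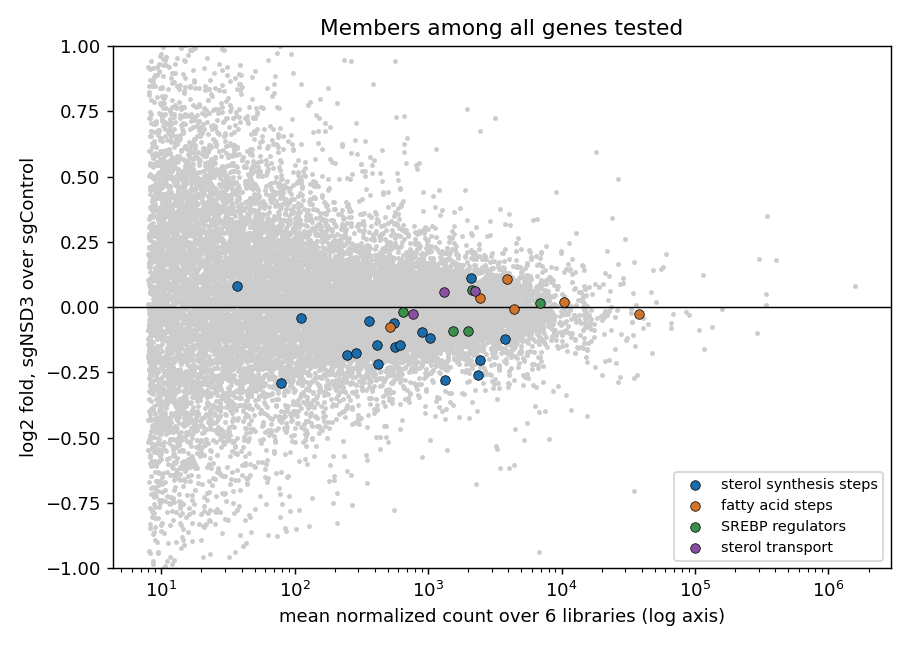
Log2 fold, libraries labelled sgNSD3 over sgControl (y axis), against mean normalized count over the 6 libraries (x axis, log scale) for the 18263 genes tested in grey, 186 of which lie beyond the y axis. Members are coloured by role, and the blue sterol steps sit mostly in the lower part of the grey cloud at middle to high levels.

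RefSeq promoters (250 bases before to 50 after the start, GRCm38.p6) were matched by symbol for 25 of the 32 members. The 4 shown are those of Hmgcs1, the member holding the sterol regulatory element that SREBPs bind, and of the 3 firmly called oxidases, these being chosen after their values were seen. Capitals mark that element (TCACNCCAC, either strand; in Hmgcs1 only) and every CCAAT box (CCAAT, either strand), the binding sequence of NF-Y, a factor known to act with SREBPs. Hmgcs1 is at chr13:119690101-119690400 on the plus strand, Cyp51 at chr5:4104648-4104947, Msmo1 at chr8:64733529-64733828 and Sc5d at chr9:42264251-42264550, these 3 on the minus strand.
Hmgcs1: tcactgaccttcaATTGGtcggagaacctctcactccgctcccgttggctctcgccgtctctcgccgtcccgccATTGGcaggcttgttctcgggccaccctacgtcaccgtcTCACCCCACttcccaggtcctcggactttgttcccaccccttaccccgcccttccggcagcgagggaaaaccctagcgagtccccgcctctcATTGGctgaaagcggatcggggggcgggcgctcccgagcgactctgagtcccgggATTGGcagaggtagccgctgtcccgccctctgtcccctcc
Msmo1: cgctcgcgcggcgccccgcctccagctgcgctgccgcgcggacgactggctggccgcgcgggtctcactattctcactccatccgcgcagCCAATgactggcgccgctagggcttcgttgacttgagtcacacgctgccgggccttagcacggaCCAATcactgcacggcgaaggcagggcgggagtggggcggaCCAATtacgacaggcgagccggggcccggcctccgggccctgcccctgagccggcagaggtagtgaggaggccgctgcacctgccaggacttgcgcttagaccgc
Sc5d: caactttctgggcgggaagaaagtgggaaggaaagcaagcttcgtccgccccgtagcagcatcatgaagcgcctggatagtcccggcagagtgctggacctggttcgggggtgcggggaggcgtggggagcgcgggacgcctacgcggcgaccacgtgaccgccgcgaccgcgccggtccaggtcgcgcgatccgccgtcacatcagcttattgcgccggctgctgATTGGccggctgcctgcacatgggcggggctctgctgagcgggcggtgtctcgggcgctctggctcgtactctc
Cyp51: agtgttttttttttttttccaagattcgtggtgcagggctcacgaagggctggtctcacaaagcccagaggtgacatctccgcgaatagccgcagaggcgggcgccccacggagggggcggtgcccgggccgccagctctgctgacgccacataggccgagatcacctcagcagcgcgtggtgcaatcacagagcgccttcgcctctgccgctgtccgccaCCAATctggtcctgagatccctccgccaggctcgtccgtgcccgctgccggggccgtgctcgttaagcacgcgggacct

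The element in Hmgcs1 begins 137 bases before the start. It occurs in 1 of 25 matched members, and in 1.44% of all 27025 genes with a promoter in the table (1.44% of the 11204 with tested RNA). A CCAAT box lay in the promoters of 14 of 15 matched sterol genes, 2 of 4 fatty acid genes and 4 of 5 regulators, beside 42.5% of the 11204 matched genes with tested RNA. A GC box (GGGCGG, either strand) lay in 14 of 15 sterol genes, 1 of 4 fatty acid genes and 5 of 5 regulators, beside 66% of genes with tested RNA. Genes with several starts count once if any start holds the motif. All 5 sterol genes that fell had a CCAAT box and a GC box, as did 8 uncalled sterol genes: Mvk, Mvd, Idi1, Lss, Tm7sf2, Nsdhl, Hsd17b7 and Ebp. For Dhcr7 the CCAAT box lay only at the third of its 3 listed starts. A match is only a stretch of letters, and the strict form of the element misses variants of it.

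Among the fatty acid steps, Fasn, Acaca and Acly were near level. Fasn, the synthase that builds palmitate, had 10601, 10622 and 10555 normalized counts in libraries labelled sgNSD3, against 10780, 10499 and 10073 in sgControl. The libraries labelled sgNSD3 lay inside the sgControl range, and the interval of fold ran from 0.974 to 1.06. Acaca, the carboxylase that makes malonyl-CoA, had 2426, 2487 and 2538 normalized counts in libraries labelled sgNSD3, against 2296, 2533 and 2447 in sgControl, with an interval of fold from 0.97 to 1.08. Acly, which supplies cytosolic acetyl-CoA to both routes, had an interval of fold from 0.951 to 1.04. Elovl6, an elongase, was at 507.8 ± 14.8 normalized counts in libraries labelled sgNSD3 and 535.9 ± 47.4 in sgControl (SD, n = 3 each). Its interval of fold, 0.867 to 1.04, held the fold of Cyp51, so a fall of that size could not be told from none. None of these 4 was called (limma adjusted p from 0.521 to 0.938). For Fasn, Acaca and Acly, the whole interval lay above the fold of Cyp51, Msmo1 and Sc5d, at 0.869, 0.823 and 0.835 of the sgControl mean.

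Of the stearoyl-CoA desaturases, which put the first double bond into saturated fatty acids, Scd1 was called and Scd2 was not. They were not tested against each other. Scd1 and Scd2 lie 87585 bases apart on chromosome 19, with Scd1 at 44394450 to 44407709. Scd1 had 3996, 4028 and 4059 normalized counts in libraries labelled sgNSD3, against 3684, 3758 and 3762 in sgControl. It was 1.08-fold higher with ranges apart (log2 fold 0.11 ± 0.031, SE; limma adjusted p = 0.0171). The call was lost when any 1 library labelled sgNSD3 was left out (adjusted p up to 0.0945) and held in the other 12 alternatives. Scd2 had 37803, 36847 and 37851 normalized counts in libraries labelled sgNSD3, against 38161, 38463 and 38019 in sgControl. Its ranges were narrowly apart, and it was not called (log2 fold -0.03 ± 0.024, SE; limma adjusted p = 0.593). Under quantile normalization its sign turned (log2 fold 0.08, adjusted p = 0.00912), so no direction is given for Scd2. Scd1 was called higher under quantile normalization too (log2 fold 0.13, limma adjusted p = 0.00479), so the contrast in calls depended on the scaling. The count ratio of Scd1 to Scd2 was 0.106, 0.109 and 0.107 in libraries labelled sgNSD3 and 0.0965, 0.0977 and 0.099 in sgControl, higher in each library labelled sgNSD3. The sources do not state how reads common to these similar genes were counted.

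The regulators were not called in either direction. Srebf2, which encodes SREBP-2, had 7045, 6864 and 6963 normalized counts in libraries labelled sgNSD3, against 7049, 6814 and 6780 in sgControl. The ranges nearly coincided, with an interval of fold from 0.971 to 1.05. Srebf1, which encodes SREBP-1, had 2165, 2164 and 2156 normalized counts in libraries labelled sgNSD3, against 2243, 2005 and 1967 in sgControl. Here sgControl replicate 1 stood above the other libraries, and without it Srebf1 was called higher (log2 fold 0.12, adjusted p = 0.0172) where it was not called with it (log2 fold 0.06 ± 0.042, SE; adjusted p = 0.372). Scap, the sterol-sensing escort, had 1830, 1993 and 1989 normalized counts in libraries labelled sgNSD3, against 2198, 1956 and 2046 in sgControl (log2 fold -0.09 ± 0.044, SE; limma adjusted p = 0.178). Its ranges overlapped.

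Insig1, itself a gene switched on by SREBPs, had 1473, 1478 and 1486 normalized counts in libraries labelled sgNSD3, against 1564, 1629 and 1538 in sgControl. All libraries labelled sgNSD3 were lower, by 1.07-fold on average, yet the gene was not called (log2 fold -0.09 ± 0.04, SE; limma adjusted p = 0.134) and stayed so under all 15 alternatives. Insig2, its paralog, had 648, 664.5 and 609 normalized counts in libraries labelled sgNSD3, against 680, 619.1 and 649.5 in sgControl, with overlapping ranges (limma adjusted p = 0.875). Over all 32 members, the range of the libraries labelled sgNSD3 lay wholly below that of sgControl for 10 and wholly above for 2. Over all genes tested these shares were 14.4% and 14%. Of the 10, 8 were sterol steps, and the others were Insig1 and Scd2.

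The sterol transport genes were not called either. Stard4 carries cholesterol between membranes, Npc1 exports it from lysosomes, and Abca1 passes it to lipoproteins outside the cell. Stard4 averaged 764.2 ± 40.6 normalized counts in libraries labelled sgNSD3 and 779.1 ± 36.4 in sgControl (SD, n = 3 each). Npc1 averaged 1335 ± 23.5 in libraries labelled sgNSD3 and 1284 ± 53.5 in sgControl (SD, n = 3 each). Abca1 averaged 2306 ± 47.9 in libraries labelled sgNSD3 and 2212 ± 68.6 in sgControl (SD, n = 3 each). Each had overlapping ranges, and the limma adjusted p was 0.804, 0.452 and 0.318. Abca1, which sterol-derived ligands switch on through LXR, had an interval of fold from 0.989 to 1.1. Those of Stard4 and Npc1 ran from 0.908 to 1.06 and from 0.978 to 1.11. A fall the size of that in Hmgcs1 lay within the interval of Stard4. A rise the size of that in Sqle lay within those of Npc1 and Abca1.

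Other genes of these pathways were taken from 3 further lists, also chosen with earlier results of these data known. Of 12 tested genes of sterol handling, 1 fell and 1 rose (8.33% each way), near the 6.44% and 5.44% of all genes. Mylip, a ubiquitin ligase that degrades lipoprotein receptors, was 1.46-fold lower at 74.45 ± 13.9 normalized counts in libraries labelled sgNSD3 and 108.7 ± 9.92 in sgControl, a call lost without sgNSD3 replicate 2 (adjusted p = 0.121). Vldlr, a lipoprotein receptor, rose 1.23-fold, to 1013 ± 40.7 normalized counts in libraries labelled sgNSD3, against 825.6 ± 55.7 in sgControl (SD, n = 3 each; limma adjusted p = 0.000264).

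Of 25 tested genes of fatty acid supply, modification and lipid assembly, 5 fell and 1 rose, beside 6.44% and 5.44% of all genes. Since earlier results were known when the list was chosen, these counts are a description and no test. Mid1ip1, which promotes the activity of acetyl-CoA carboxylase, had 2751, 2757 and 2733 normalized counts in libraries labelled sgNSD3, against 3378, 3445 and 3392 in sgControl. It was 1.24-fold lower (log2 fold -0.31 ± 0.032, SE; limma adjusted p = 1.2e-07), a log2 fold larger in size than that of any of the 32 members and called under all 15 alternatives. Tecr, the last enzyme of each elongation round, and the desaturase Fads2 were 1.13-fold and 1.1-fold lower, also under all 15. Slc25a1, which exports citrate from mitochondria, was 1.14-fold lower but was lost in 4 of 15, among them the removal of sgNSD3 replicate 2 or 3 or of sgControl replicate 1 (adjusted p up to 0.145). The desaturase Fads1 also fell, 1.08-fold, and Gpam, an acyltransferase of glycerolipid synthesis, rose 1.1-fold (limma adjusted p = 0.00825 and 0.00404). Both are named after their values were seen. Of 10 other SREBP pathway genes, 1 fell and 2 rose, counts too small to set apart from the 6.44% and 5.44% of all genes. Paqr3, a Golgi anchor of SCAP, and Rnf139, an endoplasmic reticulum ubiquitin ligase, were each 1.11-fold higher, and the kinase subunit Prkaa2 was 1.4-fold lower at 53.54 ± 7.89 normalized counts in libraries labelled sgNSD3 and 75.05 ± 2.93 in sgControl (SD, n = 3 each). These 3 calls were each lost when any 1 library labelled sgNSD3 was left out, and in other settings besides (adjusted p up to 0.218). The site-1 and site-2 proteases that cleave SREBPs, Mbtps1 and Mbtps2, were not called.

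**Figure D4:**
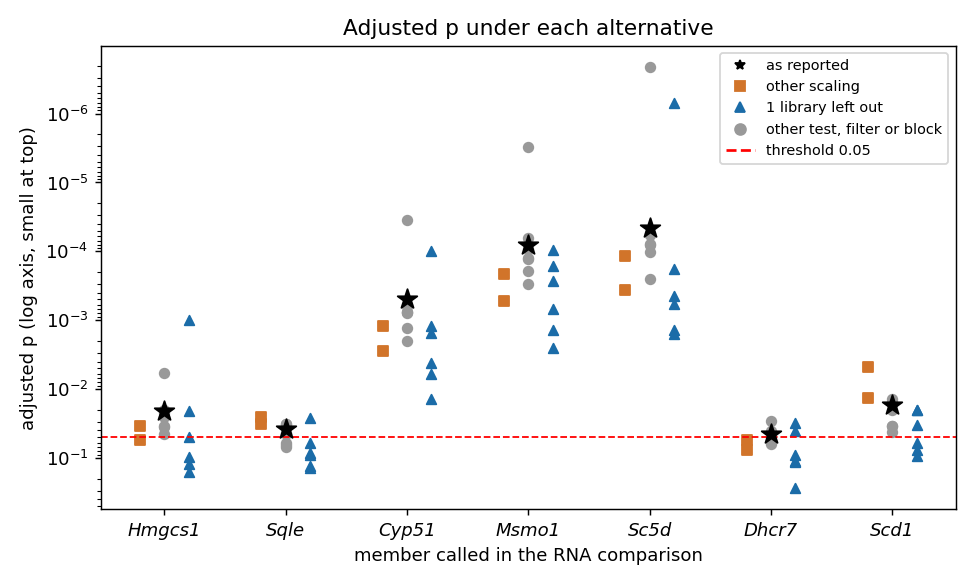
Adjusted p (y axis, log scale, small values at the top) of the 7 called members as reported (stars) and under each alternative, with other scalings as squares, left-out libraries as triangles and other tests, filters or blocks as circles. All points of Cyp51, Msmo1 and Sc5d lie above the dashed threshold of 0.05, while Hmgcs1, Sqle, Dhcr7 and Scd1 cross it.

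Gene-body scores for 2 histone marks were deposited as 3 columns, 1 for H3K27me3 and 2 for H3K36me2, without values per library. The header does not say what was set against what, so whether they hold a difference between the guides is unknown, and no test was made. In the authors' deposited table, all 32 members had a score above 0 in the first H3K36me2 column and 31 in the second, where 89.4% and 92.4% of 22470 gene bodies did, and 93.3% and 96.5% of the 12615 with tested RNA. The members' shares were thus near those of other gene bodies with tested RNA. The exception in the authors' deposited table was Stard4, at -0.00466 in the second column. For H3K27me3, 2 members scored above 0 in the authors' deposited table, Pmvk at 0.0169 and Abca1 at 0.0308, beside 31.5% of all gene bodies and 18.1% of the 12615 with tested RNA. Msmo1 is listed there under its older symbol Sc4mol.

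By median, the fatty acid genes ranked higher for H3K36me2 than the sterol genes in the authors' deposited table. This is a description with no test. Their median percentile among all gene bodies was 76.8 and 79.2 in the H3K36me2 columns, and that of the sterol genes was 59 and 50.6. The groups overlapped in the authors' deposited table, where the fatty acid gene Scd2 stood at percentile 17.6 in the first column. There the sterol genes Idi1 and Sc5d stood at 95.3 and 93.9, above every fatty acid gene. For H3K27me3 the median percentile in the authors' deposited table was 23.1 for the fatty acid genes and 41 for the sterol genes. Srebf2 had the highest score of the 32 in the second H3K36me2 column of the authors' deposited table, 0.419 (percentile 99.2), and 0.129 (82.3) in the first, while Srebf1 had 0.0664 (24.1) in the second and 0.102 (66.4) in the first. Npc1 had the lowest H3K27me3 score of the members in the authors' deposited table, -0.17 (percentile 3.58).

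The sterol genes most firmly called lower in RNA shared no place on these scales. In the authors' deposited table, Sc5d stood at percentile 93.9 in the first H3K36me2 column and 13.8 in the second, Cyp51 at 25.6 and 93.3, and Msmo1 at 44.9 and 29. The columns ranked the members differently, with a Spearman's rho of 0.20 over 32 genes computed from the authors' deposited table, as a description only. Some scores were shared by many gene bodies. In the authors' deposited table, Mvd and Ebp shared an H3K27me3 score of -0.0258 with 655 gene bodies in all, and Idi1 and Sqle shared a second-column H3K36me2 score of 0.134 with 490, to within 1e-05.

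**Figure D5:**
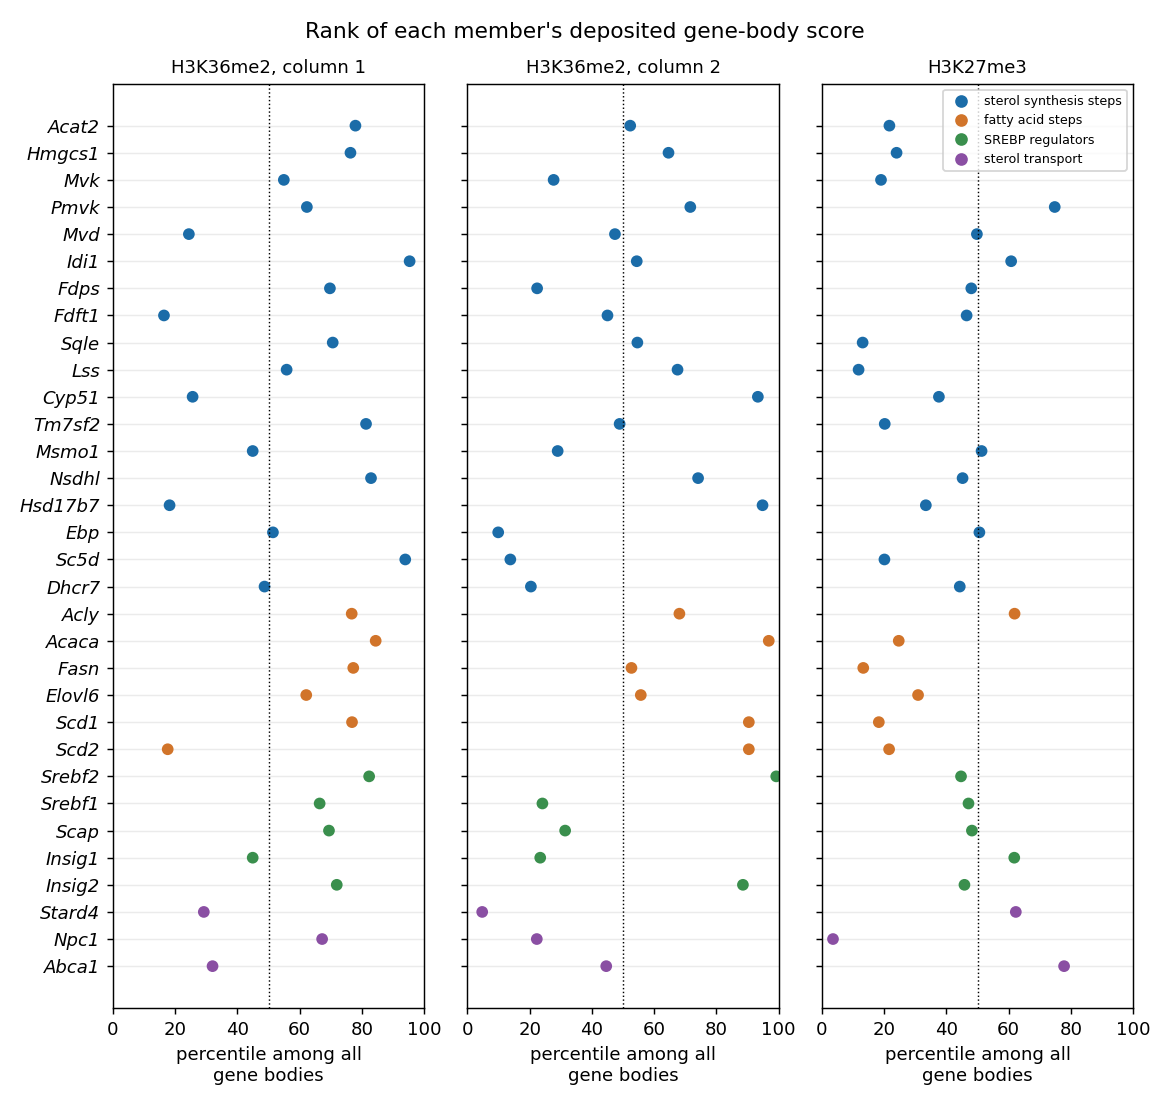
Percentile of each member's deposited gene-body score among 22470 gene bodies (x axis) in the 2 H3K36me2 columns and the H3K27me3 column, genes in rows by role. The orange fatty acid genes lie mostly right of the dotted median for H3K36me2, and the blue sterol genes spread across the range in all 3 panels.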

How the data were processed

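The tools named in the submitters' processing notes are HISAT2, featureCounts and DESeq2, and the build is mm10; versions and settings are not given in the sources used here. The authors deposited RNA as log2 values with a floor of 8.45 for genes without reads. Inverting the closed form of DESeq2's variance-stabilising transform gave whole counts, within 0.05, for 100% of values above 0. The chromatin values are signed scores per gene body deposited by the authors. There were 0 other value columns.

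RNA was compared with limma 3.58.1 in R 4.3.3 (with a trend of variance on mean) on the log2 values of 18263 genes with a mean of at least 8 normalized counts, 3 against 3 libraries, calling adjusted p (Benjamini-Hochberg) under 0.05. Log2 folds, standard errors and 95% intervals were fitted to log2 of the normalized count plus 1, a scale that understates changes of low genes; folds are ratios of means. Low values on the deposited scale are compressed. The fit was tested on simulated counts with the same dispersion in every gene and library. No simulated library stood apart as sgControl replicate 1 did, so the simulation does not cover that feature of these data.

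The rule for named genes took all 32 members, Nsd3 and up to 4 called genes per other list with the largest log2 fold. Members and lists were chosen with earlier results of these data known. Replicate numbers follow the titles; descriptions and columns number the sgNSD3 RNA samples differently. Pairs of libraries differed by more than counting error (chi-square per degree of freedom from 1.32 to 9.58), so none was merged. Alternatives covered the test, trend, scaling, filter, replicate block and each library left out. Pathway genes outside these lists were not analysed here, and 1 gene of the sterol handling list is not reported here. Levels were not compared between genes, since transcript lengths were not used. Of the members, 14 overlap another gene in RefSeq's mm10 table, none of them called, and strand counting is not stated.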

Additional observations from a re-analysis of the deposited data

How the results depend on the processing

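Over 15 alternatives, all genes called numbered 1354 to 1431 when a library labelled sgNSD3 was left out and at most 2159 when an sgControl library was, against 2170 as reported. With 1 library left out, 639 to 998 genes were higher and 709 to 1166 lower; other settings stayed within 1.5 times. The sterol steps called numbered 3 without sgNSD3 replicate 3 or sgControl replicate 3 (3 lower, 0 higher), and at most 5 with another library left out, all 5 lower without sgControl replicate 1. Under quantile normalization 3 were lower. The 1 higher (Sqle) became 0 without the trend, without the low-value filter, under the replicate block by column numbers, and without sgNSD3 replicate 1, 2 or 3 or sgControl replicate 1 or 3. The fatty acid steps called were 2 under quantile normalization (Scd1 and Scd2) and 0 without any 1 library labelled sgNSD3. The regulators called were 1 (Srebf1) without sgControl replicate 1. The causes were not tested.

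Signs turned for uncalled genes near 0. The log2 fold of Acly was 0.01 under quantile normalization and 0.00 under upper-quartile scaling, and that of Scd2 was 0.08 under quantile normalization. Leaving out 1 library gave log2 folds from -0.03 to 0.02 for Acly, -0.00 to 0.07 for Acaca, -0.01 to 0.04 for Fasn, -0.05 to 0.17 for Fdps, -0.05 to 0.02 for Insig2 and -0.07 to 0.01 for Stard4. Of 630 log2 folds of 42 genes under the alternatives, 570 kept sign and call, 45 kept the sign but lost the call, 2 kept the sign and gained it and 13 changed sign, Scd2 among them with a call. The median log2 fold of the sterol steps stayed between -0.16 and -0.12.

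Correlations gave no clear sign that equal replicate numbers pair the RNA libraries, but with 3 libraries per condition they cannot exclude pairing. Deviations from the condition means correlated at 0.046, 0.0163 and -0.0134 by title numbers and at -0.0663, -0.00654 and -0.0397 by column numbers, and 3 and 0 of 6 libraries correlated best with their own number. With the replicate block, 1119 genes were higher and 1333 lower by title numbers, and 919 and 1086 by column numbers, against 994 and 1176 without a block. Among members the block by column numbers removed the call of Sqle (limma adjusted p = 0.0612).

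Depth limits the low members: Fdps, Pmvk and Tm7sf2 lay near or under 100 normalized counts.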
